A study of Mus musculus with 9 samples.

Results

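The enzymes described here make, use and recycle glutathione, or reduce peroxides and protein disulfides by way of peroxiredoxins and thioredoxins. They are the genes whose first name in the deposited table begins with Gsta, Gstm, Gstp, Gstt, Gsto, Gstk, Mgst, Gpx, Prdx or Txn, together with Gstz1, Gss, Gsr, Gclc, Gclm, Cat, Sod1, Sod2 and Sod3. The rule uses names alone and found 64 genes in 77 transcript rows, of 23112 gene names in 29661 rows. FPKM (fragment counts divided by transcript length and by sequencing depth) was summed over the rows of each gene, and 55 of the 64 genes had a mean of at least 1 FPKM over both columns.

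Whole testes were taken from C57BL/6 mice at postnatal day 10. There were 3 RNA-seq libraries with the genotype Lin28a knockout, whose titles carry the tag cKO, and 3 with the genotype wild type. Another 3 samples are LIN28A CLIP, in which RNA bound to the protein was recovered, and were not analysed here. The labels name no driver of the deletion and leave unsaid whether the libraries within a group stem from different mice. The table holds 1 value per group, in columns named case and control, so no spread between libraries and no n can be set beside a value, and depth is unknown. Lin28a itself stood at 23.4 FPKM under case and 8.82 under control (the authors' deposited table gives q = 0.00191), which goes against reading case as the knockout. Both columns are therefore called by their labels, and in every pair of values below case comes first.

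Glutathione is a tripeptide thiol that cells build in a pair of enzyme steps and keep reduced with NADPH. Glutathione S-transferases join it to electrophiles, glutathione peroxidases spend it on hydrogen peroxide and lipid hydroperoxides, and peroxiredoxins do similar work with electrons passed on by thioredoxin and thioredoxin reductase. In the testis the steroid-making Leydig cells, the Sertoli cells and the developing germ cells all meet oxidants, and Gpx4 is known as an enzyme that spermatogenesis cannot do without.

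Redox enzyme transcripts were abundant and nearly equal between the 2 columns. Together the 55 genes summed to 4963 FPKM for case and 4927 FPKM for control, or 1.51% of all FPKM in each. Of these genes 12 were at 100 FPKM or more, which is 21.8% of them, against 3.72% of all 12593 genes at a mean of at least 1 FPKM. The 10 highest genes held 68.3% of the FPKM of all 64 in the case column and 68.4% in the other. These were Gstm1, Sod1, Gstm6, Gsta4, Gstm2, Txnip, Prdx2, Gstm7, Mgst1 and Prdx1. The order of the genes by level was also similar, with 28 of 55 at the same rank in both columns and no gene more than 5 ranks apart.

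**Figure D1:**
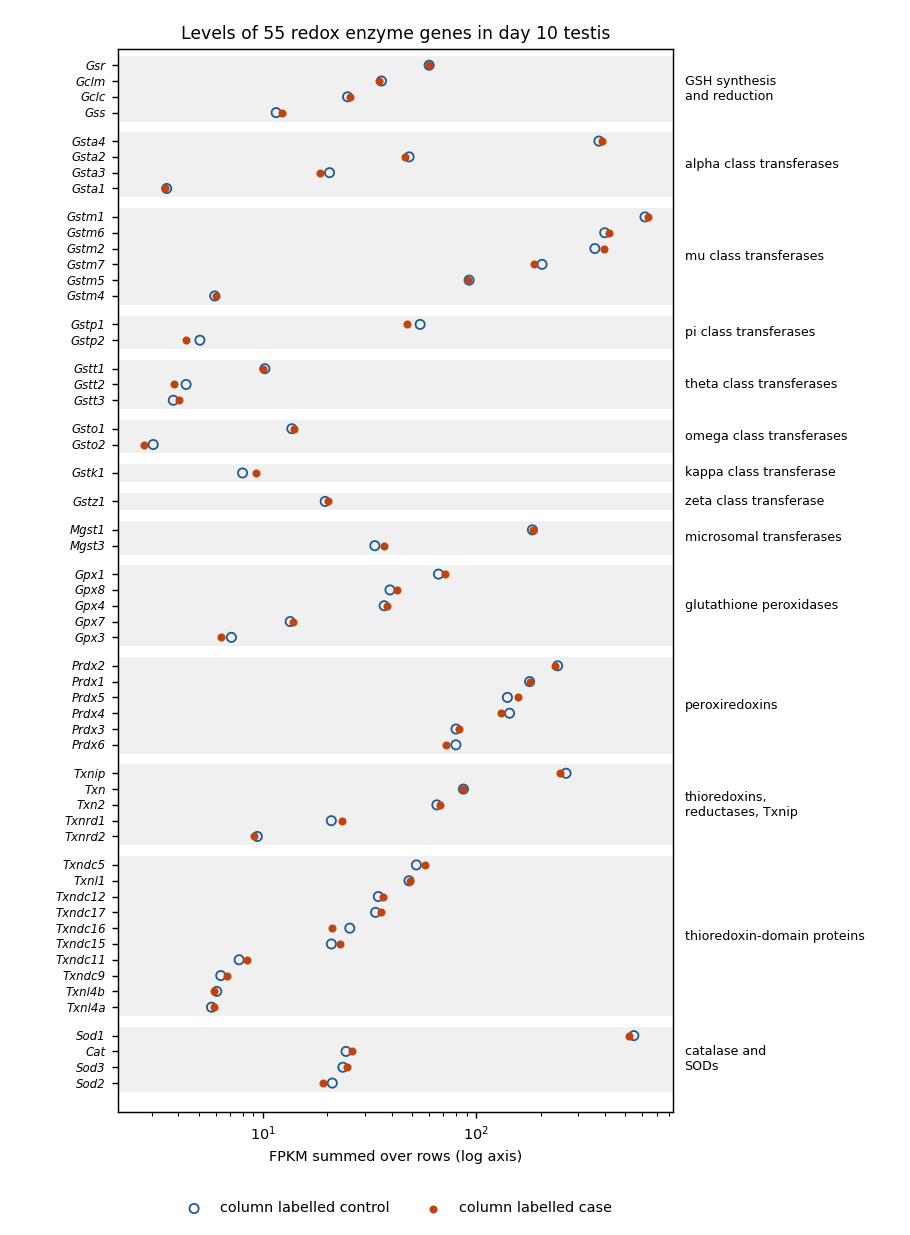
FPKM of the 55 genes with a mean of at least 1 FPKM, on a log axis, grouped by enzyme family; filled points are the case column and open circles the control column, each a single value for its group with no error. The points of each gene lie close together while genes span from 2.90 FPKM (mean of Gsto2) to 629 FPKM (mean of Gstm1).

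No row of these genes was called in the authors' test. Of 59 member rows with a usable p-value, 0 had a q-value under 0.05, and the authors' deposited table gives all 59 the same q of 0.999966. Over all 13629 tested rows 0.0514% were called. At an unadjusted p under 0.05 there was 1 member row of 59, a minor transcript of Txnrd1, where 1.28% of all tested rows passed. The next smallest p among the members was 0.275, for Txndc16. The median p of member rows was 0.785 and that of all tested rows 0.731, both from the authors' deposited table. The authors' p-values run high throughout, so a q-value near 1 does not show that 2 levels were the same.

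By size, too, the members stood close together. Differences are given below as log2(FPKM + 1) for case less that for control, a scale that understates changes at low FPKM. No member of the 55 was past 1.5-fold on this scale, where 1.26% of the 12593 genes were, and in none was the larger value at least 25% above the smaller, where in 6.28% it was. Among genes at 10 FPKM or more, 0 of 42 members and 3.35% of all 7047 genes differed by such a step of 25%. The differences ran from -0.26 (Txndc16) to 0.19 (Gstk1), with a median of 0.03, and the median over all genes was also 0.03. In plain FPKM, 46 of the 55 members (83.6%) were within 10% between columns, against 62.4% of all genes. At 10 FPKM or more, 37 of 42 members and 75.2% of all genes were. Members lay at higher levels, with a median of 49.7 FPKM against 23.7 FPKM for all genes at this cut. At 50 FPKM or more, the median size of the difference, without its sign, was 0.0636 for 21 members and 0.0655 for all 1355 genes. Genes were not matched by level, so closeness is not shown to be a trait of the members. Nor does 0 of 55 past 1.5-fold set them apart, where 1.26% of all genes were.

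The direction of these small differences moved with the scaling. Of the 55 members 31 were higher in the case column (56.4%), against 60.8% of all genes. When the columns were scaled so that the median ratio over all genes became 1, 25 of the 55 were higher (45.5%), because Gclc, Gstm4, Gsto1, Mgst1, Txnl1 and Txnl4a changed side. In whole testis, fewer cells of a type and less RNA per cell cannot be told apart.

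**Figure D2:**
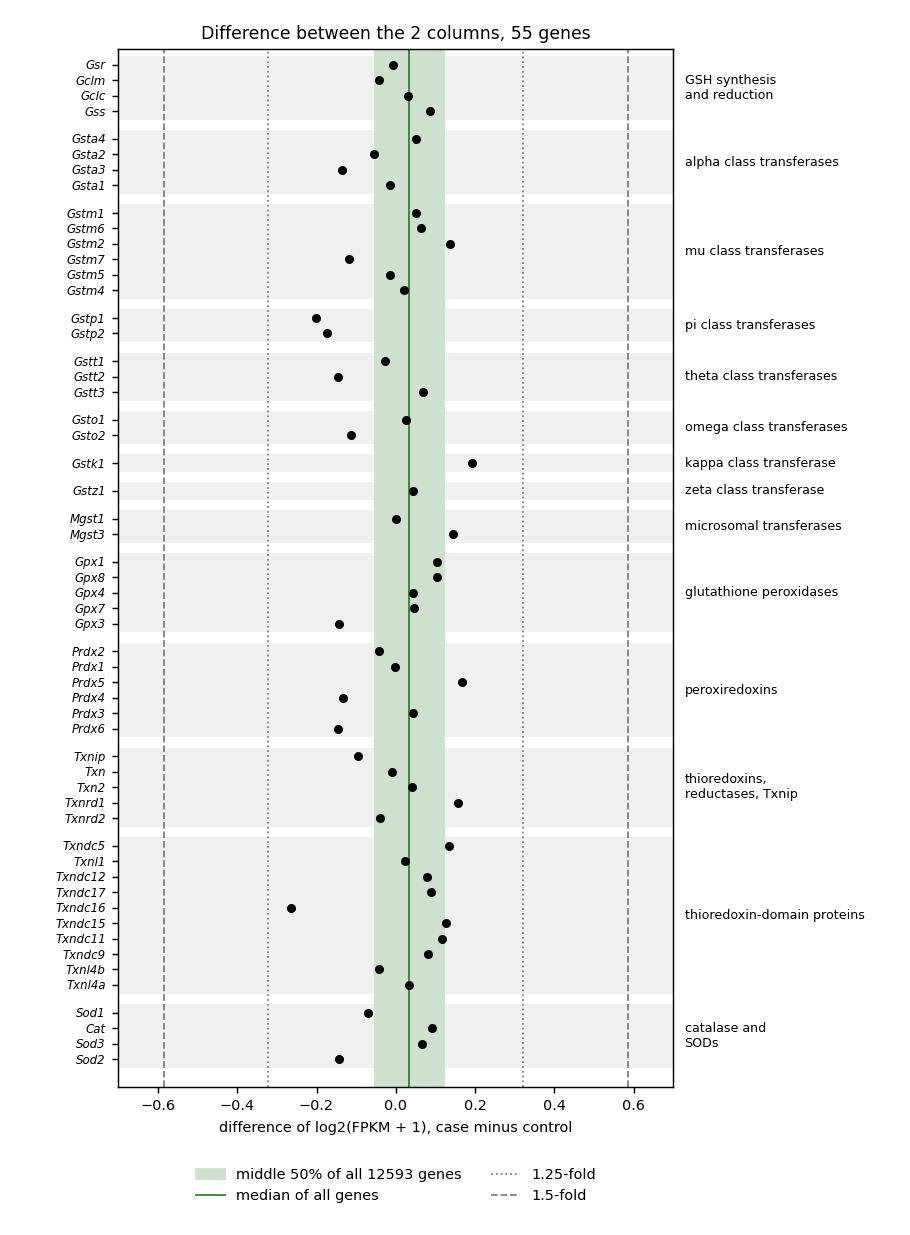
Difference of log2(FPKM + 1) between columns, positive where case is higher, for each of the 55 genes by family (points), beside the middle 50% of all 12593 genes (band from -0.05 to 0.12), their median (line) and the positions of a step of 25% (dotted) and of 1.5-fold (dashed). All points lie inside the dotted lines, with Txndc16 at -0.26 farthest from 0.

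The enzymes that make and reduce glutathione were at moderate levels. Gsr, glutathione reductase, which returns the oxidised form to the thiol with NADPH, was the highest, at 59.7 and 60.0 FPKM. Gclm and Gclc, the modifier and catalytic subunits of glutamate-cysteine ligase, the rate-limiting step, were at 34.8 and 35.9 FPKM and at 25.4 and 24.9 FPKM. The transcript of the modifier subunit was thus the more abundant of the pair in both columns. Gss, glutathione synthetase, which adds glycine, was lowest at 12.3 and 11.5 FPKM. None of the 4 differed by more than 6.60%, and the sum over them was 132 FPKM in each column.

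Mu class transferases were the most abundant family, with a sum of 1738 and 1679 FPKM over 6 genes. They are cytosolic enzymes that conjugate glutathione to hydrophobic electrophiles. All 7 genes of the class lie in a row on mm10 chromosome 3, within the 168 kb from 107877230 to 108044859. The first end is that of the deposited Gstm5 locus, which is 21.5 kb long where the gene spans 2.83 kb, so the row itself may be shorter. Gstm1 (NM_010358; 108012250 to 108017973), the highest gene of all 64, was at 639.7 and 618 FPKM. Gstm6 was at 418 and 400.0 FPKM, Gstm2 at 395 and 359.7, and Gstm7 at 187 and 203. Gstm5, known from testis and brain, was at 91.4 and 92.4 FPKM. Beside these 5, Gstm4 at the distal end was at 6.03 and 5.92 FPKM, and Gstm3, between Gstm6 and Gstm2, at 0.606 and 0.383. From the lowest to the highest gene of the row, levels in the case column thus spanned 1055-fold, and the widest difference between columns among its 6 kept genes was 9.94%, for Gstm2. Mu class genes are close paralogs, and how the authors' counting shared reads between them is not given, so the split of FPKM among them is uncertain.

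Alpha class transferases, which also reduce lipid peroxides and, in Gsta4, take up the lipid aldehyde 4-hydroxynonenal, were next among the transferases. Gsta4 (NM_010357; chromosome 9, 78191966 to 78209349) was at 389 and 376 FPKM. In the same 155.2 kb, Gsta2 was at 46.5 and 48.3 FPKM and Gsta1 at 3.48 and 3.53 FPKM. From Gsta1 to Gsta4, levels in this row spanned 112-fold for case and 107-fold for control. Of the 2 rows named Gsta1, one belongs by its accession to Gm3776, a near copy, and held 11.8% and 10.9% of the sum, so the level of Gsta1 is uncertain. Gsta3, alone on chromosome 1, was at 18.5 and 20.5 FPKM. It is a glutathione transferase with steroid isomerase activity.

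**Figure D3:**
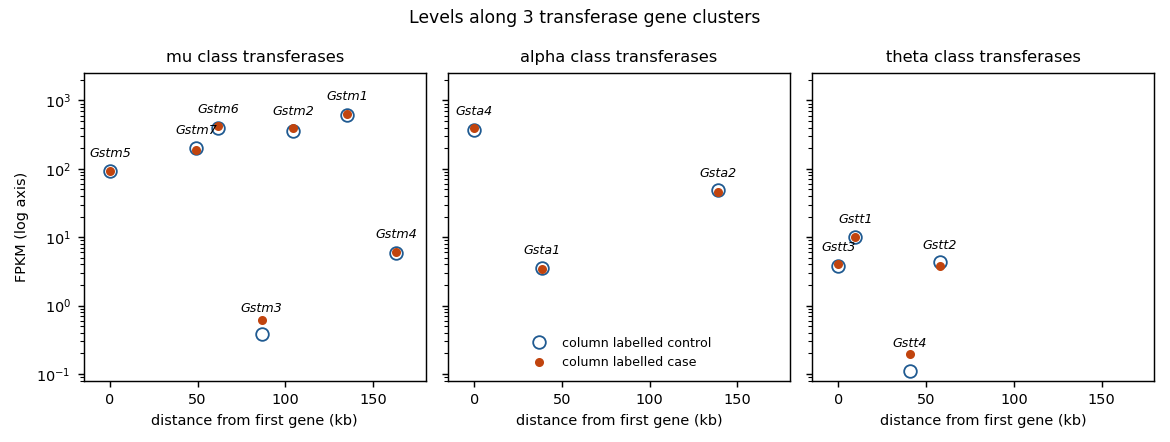
FPKM on a log axis against distance in kb from the first gene, for the mu class row on chromosome 3, the alpha class row on chromosome 9 and the theta class row on chromosome 10; filled points are the case column and open circles the control column. Neighbouring genes can differ over 100-fold (Gstm3 beside Gstm6 and Gstm2), while the 2 columns overlap at nearly every gene. Distances use deposited starts, and that of Gstm5, the first of the mu class row, belongs to a locus longer than the gene.

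The remaining cytosolic and microsomal transferases were lower, with Mgst1 the exception. Mgst1, a membrane enzyme of the endoplasmic reticulum and outer mitochondrial membrane, was at 183.4 and 183.2 FPKM, a difference of 0.0972%. Mgst3, of the same membrane family, was at 37.0 and 33.4 FPKM, and Mgst2 was at 0.476 and 0.423 FPKM. The pi class genes Gstp1 and Gstp2, neighbours on chromosome 19 within 6.81 kb, were at 47.2 and 54.5 FPKM and at 4.36 and 5.05 FPKM. They were 13.3% and 13.5% lower in the case column (the authors' deposited table gives p = 0.517 and p = 0.723), which is not past the test. The pair is nearly identical in sequence, so reads may be shared between them and they are not separate observations.

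Among the theta class, Gstt1 was at 9.97 and 10.2 FPKM, Gstt2 at 3.83 and 4.35, Gstt3 at 4.02 and 3.79 and Gstt4 at 0.195 and 0.112. Gsto1 of the omega class, which reduces dehydroascorbate, was at 13.9 and 13.6 FPKM, and Gsto2 at 2.75 and 3.05. Gstk1, an enzyme of mitochondria and peroxisomes, was at 9.28 and 8.001 FPKM, 16.04% higher in the case column, and the authors' deposited table gives p = 0.654. By the rows counted, it was the largest positive difference of the 55. Gstz1, which isomerises maleylacetoacetate in tyrosine breakdown, was at 20.1 and 19.5 FPKM. Over all 21 kept transferases of 24, 11 were higher for case and 10 were lower, and the median difference was 0.0014.

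Glutathione peroxidases divided into 5 genes that were detected at 6 FPKM or more and 3 near 0. Gpx1, the cytosolic enzyme, was highest at 71.4 and 66.4 FPKM. Gpx8 and Gpx7, of the endoplasmic reticulum, were at 42.4 and 39.3 FPKM and at 13.8 and 13.4 FPKM. Gpx4, which reduces lipid hydroperoxides inside membranes and later forms part of the sperm midpiece capsule, was at 38.1 and 36.9 FPKM. Nearly all of this came from 1 of its 2 rows (NM_008162), which held 99.0% and 99.1% of the sum. The other (NM_001037741) was at 0.395 and 0.345 FPKM. Both rows carry a locus of 672 kb, where the gene spans 9.27 kb, and what this does to the level and the split was not tested. Gpx3, the secreted plasma form, was at 6.33 and 7.10 FPKM, the only one of the 5 that was lower in the case column, also after scaling by the median ratio. Gpx2, an epithelial enzyme of the gut, was at 0.126 and 0.172 FPKM. Gpx5, which the epididymis secretes, was listed at 0 for case and at 0.0591 FPKM for control, and its neighbour Gpx6 was at 0.0984 and 0.0799 FPKM.

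All 6 classical peroxiredoxins were among the abundant genes, between 76.3 and 237 FPKM in mean level. Prdx2 (NM_011563; chromosome 8, 84969648 to 84974313), a cytosolic enzyme also plentiful in red blood cells, was at 233 and 241 FPKM. Prdx1, its cytosolic relative, was at 177.6 and 177.8 FPKM. Prdx5, found in mitochondria and peroxisomes, was at 157 and 139.8 FPKM, 12.3% higher in the case column. Prdx4, of the endoplasmic reticulum and encoded on chromosome X, was at 130.4 and 143 FPKM. The order of Prdx4 and Prdx5 was therefore exchanged between the columns. Prdx3, the mitochondrial form, was at 82.7 and 80.2 FPKM, and Prdx6, the 1-Cys form that draws on glutathione, at 72.4 and 80.2 FPKM. The p-values of the 6 in the authors' deposited table ran from 0.519 to 0.995. Prdx6b was at 0.0288 FPKM for case and listed at 0 for control.

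In the thioredoxin system, the highest transcript was that of its inhibitor. Txnip, which binds reduced thioredoxin and limits glucose uptake, was at 247 and 263 FPKM. Both of its rows have the status FAIL, so no p-value can be read. Txn1 (named Txn in the table), the cytosolic thioredoxin, was at 86.4 and 87.0 FPKM, and Txn2, the mitochondrial one, at 67.2 and 65.2 FPKM. Txnrd1 and Txnrd2, the selenoenzymes that reduce them, were lower, at 23.4 and 20.9 FPKM and at 9.10 and 9.38 FPKM. Each thioredoxin was thus above the reductase of its compartment in both columns.

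Txnrd1 (chromosome 10, 82833951 to 82897724) holds the member row of smallest p. Its main row, NM_001042513, was at 19.1 and 18.03 FPKM and made up 81.6% and 86.4% of the gene. The row NM_001042514 was at 1.87 and 0.601 FPKM, 3.10-fold higher for case, and the authors' deposited table gives p = 0.0428 with q = 0.999966. It thus made up 7.98% of the gene in one column and 2.88% in the other. The row NM_001042523 was at 0.939 and 0.538 FPKM and NM_015762 at 1.49 and 1.70 FPKM, for which the authors' deposited table gives p = 0.366 and p = 0.775. The sum over the 4 rows was 11.99% higher for case, a difference of 0.16. The 3 minor rows are all under 2 FPKM, and the rows overlap in sequence, so their shares rest on how the authors' program divided common reads.

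Of the other 9 members with more than 1 row, 6 had rows that differed in opposite directions, and no tested row of these was past the test. Both rows of Txnip and of Txndc2, and 1 row each of Gsta1 and Gstm4, had no usable p-value. Both rows of Gpx4 were higher for case, and Gsto2 and Txndc11 each had 1 row above 0. The opposite rows of Gsta1, Gstm4 and Txndc2 include at least 1 row under 1 FPKM in both columns, and the other 3 genes are given here. For Gsta3 the main row NM_010356 was at 13.9 and 16.6 FPKM, and NM_001077353 at 4.67 and 3.84 FPKM. For Gstz1 the main row NM_010363 was at 15.8 and 16.7 FPKM, and NM_001252556 at 4.36 and 2.78 FPKM, 1.57-fold higher in the case column. For Txnip the row NM_001009935 was at 138 and 157 FPKM, and NM_023719 at 109 and 106 FPKM. In each of the 3 genes the larger row was lower and the smaller row higher in the case column. The tested rows of Gsta3 and Gstz1 had p from 0.319 to 0.802, as the authors' deposited table gives them.

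**Figure D4:**
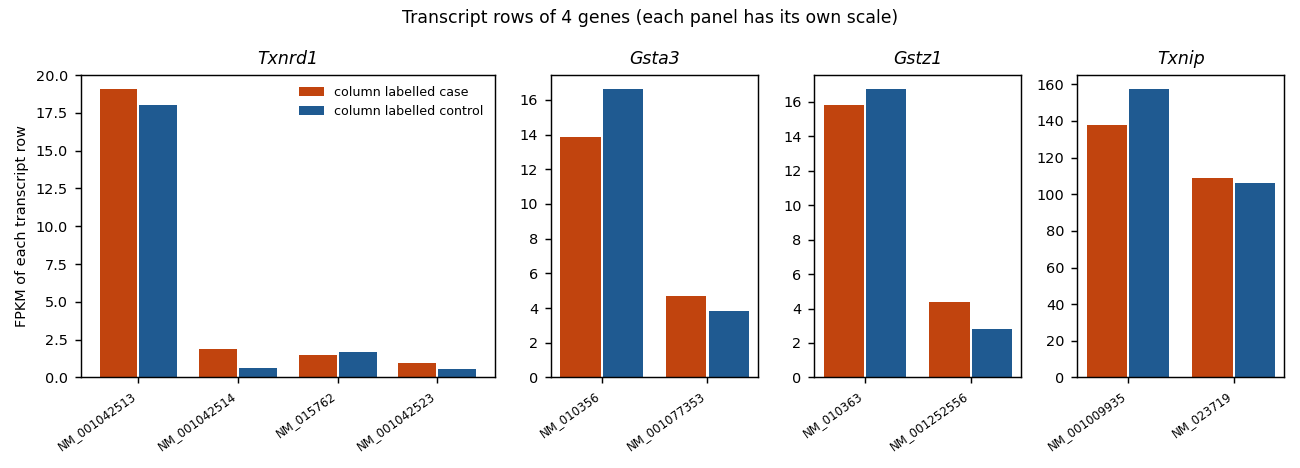
FPKM of each transcript row above 0 for Txnrd1, Gsta3, Gstz1 and Txnip (bars from 0, each panel with its own scale; single group values with no error). The Txnrd1 row at 1.87 and 0.601 FPKM is small beside its main row, and in the other 3 panels the larger row is lower in the case column while the smaller is higher.

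Proteins with a thioredoxin domain but other tasks made up 12 members. Txndc5, a protein disulfide isomerase of the endoplasmic reticulum, was highest at 57.5 and 52.3 FPKM, followed by Txnl1, a cytosolic partner of the proteasome, at 49.03 and 48.3. Txndc12, another enzyme of the endoplasmic reticulum, was at 36.6 and 34.7 FPKM, and Txndc17, a small cytosolic reductase, at 35.8 and 33.7. Txndc16, a lumenal protein of the endoplasmic reticulum, was at 21.1 and 25.5 FPKM. It was 17.3% lower for case, by the rows counted the largest difference of the 55 in either direction. The authors' deposited table gives p = 0.275. Txndc15, Txndc11 and Txndc9 were at 22.9 and 20.9, 8.44 and 7.71, and 6.75 and 6.32 FPKM. Txnl4b and the row counted for Txnl4a were at 5.85 and 6.05 and at 5.87 and 5.72 FPKM. Most of the Txnl4a transcript stands in rows under another name, which are given at the end. Txndc2 and Txndc8, the sperm thioredoxins that spermatids make, were at 0.401 and 0.395 FPKM and, for Txndc8, listed at 0 in both columns. Of the 10 kept genes 8 were higher in the case column, and 6 were after scaling by the median ratio.

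Sod1, the cytosolic copper-zinc superoxide dismutase (NM_011434; chromosome 16, 90220742 to 90226324), was second of all 64 genes at 522 and 548 FPKM. The mitochondrial and extracellular enzymes were far lower. Sod2 was at 19.0 and 21.1 FPKM and Sod3 at 24.8 and 23.6 FPKM. Cat, the peroxisomal catalase that breaks down the hydrogen peroxide they form, was at 26.1 and 24.5 FPKM. None of these 4 differed by more than 9.92%.

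Many genes of this group are known targets of NRF2 (Nfe2l2), a factor that binds antioxidant response elements. The core of that element, TGACNNNGC on either strand, was searched in windows of 300 bases, from 250 before to 50 after a gene's start, taken from RefSeq (GRCm38.p6). A gene with several annotated starts has a window at each. Windows were found for 55 of the 64 members. Of these, 11 held the core (20%), against 14.0% of all 27025 genes with a window. Members have more windows per gene (1.33 against 1.22), and by window the shares were 15.1% of 73 and 12.4% of 32851. A match is a description and not a bound site. Windows for Gclc, Gsr, Gsta4, Gstt2, Prdx6, Prdx6b, Sod3, Txnl1 and Txnl4a were not matched. The sequences below are those of the 10 kept members with a match, to show how the cores differ. Each is read 5′ to 3′ along its gene, with the core in capitals and up to 20 bases on each side. In Gclm, Mgst1, Prdx1, Sod1 and Txnrd1 the core is on the opposite strand, so that it reads GCNNNGTCA.

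Gclm: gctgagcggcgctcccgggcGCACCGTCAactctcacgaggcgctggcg
Gsta3: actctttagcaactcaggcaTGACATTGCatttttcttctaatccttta
Gstm5: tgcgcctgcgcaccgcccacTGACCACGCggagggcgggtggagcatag
Gstm7: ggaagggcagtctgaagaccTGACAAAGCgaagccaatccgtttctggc
Mgst1: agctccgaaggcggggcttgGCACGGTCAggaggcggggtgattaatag
Prdx1: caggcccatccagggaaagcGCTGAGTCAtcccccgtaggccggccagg
Sod1: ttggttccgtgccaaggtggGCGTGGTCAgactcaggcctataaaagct
Txndc11: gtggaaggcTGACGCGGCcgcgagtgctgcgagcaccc
Txndc5: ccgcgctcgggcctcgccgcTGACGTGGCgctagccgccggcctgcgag
Txnrd1: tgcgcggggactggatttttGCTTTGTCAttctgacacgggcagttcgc

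These stretches lie on GRCm38.p6 at chr3:122245403-122245451 (Gclm, plus strand), chr1:21240444-21240492 (Gsta3, plus), chr3:107895792-107895840 (Gstm5, plus), chr3:107931715-107931763 (Gstm7, minus), chr6:138140451-138140499 (Mgst1, plus), chr4:116685446-116685494 (Prdx1, plus), chr16:90220686-90220734 (Sod1, plus), chr16:11134745-11134782 (Txndc11, minus), chr13:38528024-38528072 (Txndc5, minus) and chr10:82859094-82859142 (Txnrd1, plus). In these 10 the core began between 42 bases (Gstm5) and 241 bases (Txndc11) before the start to which its window belongs. For Txnrd1 and Txndc5, with 3 windows each, and for Gstm5 and Prdx1, the stretch lies inside the locus that the deposited table gives, so the start used is not the outer end of that locus. The genes that hold it ran from Txndc11 at 8.44 and 7.71 FPKM to Sod1 at 522 and 548 FPKM. Of the 10, 4 were higher in the case column with a median difference of -0.01, and of the 37 kept members whose windows lack it 22 were higher with a median of 0.04. Both medians lie inside the middle 50% of all genes.

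Other genes of the same pathways were not called either, by the highest row of each gene. In each of the 5 lists 0 genes passed a q-value of 0.05 and 0 had p under 0.05, by the authors' deposited values for that row. Over all tested rows these shares were 0.0514% and 1.28%, so counts of 0 do not set the lists apart. Lower rows of these genes were not searched, unlike those of the members. Counts of higher genes in the 5 lists were not taken after scaling by the median ratio, so their leans hold for unscaled columns alone. The highest rows of Keap1, Nfe2l1, G6pdx, Qsox1 and Sesn1 have the status FAIL, so no p-value can be read for them. Of 23 kept NRF2 regulators and targets outside the rule, 18 were higher in the case column, with a median difference of 0.10, where 60.8% of all genes were higher with a median of 0.03. Among these 18, Akr1a1, Ftl1, Blvrb and Abcc4 differed by only 0.028, 0.017, 0.017 and 0.012. Members with differences this small changed side on scaling, so the count of 18 may overstate the lean. Nfe2l2 itself was at 44.7 and 40.0 FPKM, chosen for its role. Those of smallest p were Srxn1, which repairs over-oxidised peroxiredoxins, at 3.16 and 2.45 FPKM, Aifm2 at 8.68 and 7.62, and Ephx1, an epoxide hydrolase, at 16.5 and 14.4. Ephx1 is also in the list of Leydig cell markers given below. Glutathione turnover, transport and glutaredoxin genes had 19 of 26 higher and a median of 0.06, with Ptges at 3.81 and 2.96 FPKM, the glutaredoxin Glrx at 10.3 and 8.23, and Slc3a2, a chain of the cystine transporter, at 90.4 and 81.1.

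NADPH supply genes had 9 of 16 higher and a median of 0.03, with the transketolase Tkt at 51.1 and 43.5 FPKM, Idh1 at 84.6 and 76.8, and Nadk at 41.7 and 38.6. Thioredoxin clients and related redox proteins had 13 of 28 higher and a median of 0.00 to 2 decimals (-0.0049). In this list Sesn2 was at 15.2 and 19.0 FPKM, Srxn1, which is in the NRF2 list too, at 3.16 and 2.45, and Tmx4 at 20.1 and 22.0. Selenoproteins outside the rule and genes of selenoprotein synthesis had 13 of 22 higher and a median of 0.01, with Selenok at 40.6 and 50.3 FPKM, Sepsecs at 9.15 and 11.2, and Scly at 0.930 and 1.23.

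Several lists of cell type markers leaned to 1 side. The p-values of markers are the authors' deposited ones for the highest row of each gene, where that row was tested. Over all genes 60.8% were higher for case with a median of 0.03, and 1.28% of all tested rows had p under 0.05. Marker counts were not taken after scaling by the median ratio. All 21 kept meiotic prophase genes were lower in the case column (median -0.56), with 7 under an unadjusted p of 0.05, and summed to 542 and 819 FPKM. Leydig cell markers had 13 of 15 higher (median 0.23; sums of 557 and 462 FPKM), peritubular and stromal markers 16 of 16 (median 0.22; 1173 and 1017 FPKM) and endothelial markers 10 of 11 (median 0.21; 53.9 and 45.4 FPKM). Macrophage markers had 1 of 12 higher (median -0.14; 110.6 and 135 FPKM). Sertoli cell markers had 9 of 18 higher (median 0.02; 5680 and 5794 FPKM) and red blood cell markers 3 of 3 (median 0.07; 1130 and 1082 FPKM). Undifferentiated and differentiating spermatogonia markers, the former list with Lin28a in it, had 10 of 14 (median 0.04; 119.7 and 102.4 FPKM) and 4 of 10 higher (median -0.04; 393 and 417 FPKM), and epididymis and duct markers 3 of 8 (median -0.18; 62.3 and 73.6 FPKM). Besides the meiotic genes and Lin28a, an unadjusted p under 0.05 stood beside 2 epididymis markers, both lower for case, and 1 marker each of Leydig cells (higher), Sertoli cells (lower) and differentiating spermatogonia (lower). The part of these markers in the level of any redox gene was not tested. Markers of germ cells, Sertoli cells and Leydig cells were all detected, as the label testis implies.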

How the data were processed

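RNA-seq of testis from 3 Lin28a knockout and 3 wild type samples was used. Reads were aligned with TopHat2 2.0.9 to mm10, per the submitters' processing notes. The authors deposited FPKM, 1 value per group and RefSeq accession, and beside it the test's p-value, its q-value and a status for each row, per the file headers. The program behind them and how libraries entered the test are not given in the sources used here. By name alone, column case would be the knockout and control the wild type; the level of Lin28a goes against this, so no result is given as one of genotype.

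From these, FPKM was summed by first gene name (over all genes, rows without a name took their RefSeq symbol; members were chosen by the table's name alone), genes with a mean of at least 1 FPKM were kept, and log2(FPKM + 1) differences were taken with pandas 2.3.3 and checked on simulated data. Calls are the authors' q under 0.05 across all 13629 tested rows. Deposited starts count from 0, so 1 was added: 13901 lay 1 below the RefSeq gene start. Of 29661 rows, 29072 matched a RefSeq symbol (98.0%). The 9 member rows of Gpx4, Gstm5, Gstz1, Txnip and Txnrd2 carry loci over 2 times the length of the gene.

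Named genes were all members with a p under 0.05 or past 1.5-fold, the 3 highest of each family, both ends of each gene cluster, the core enzymes, and up to 3 genes of smallest p from each pathway list; other members named and Nfe2l2 lie outside that rule. Members and lists were chosen with earlier results of these data known. Alternatives were other filters, pseudocounts, scaling, rows and folds. Depth, and so precision, is unknown, and protein features were not analysed here.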

Additional observations from a re-analysis of the deposited data

How the results depend on the processing

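The count of members with a q-value under 0.05, which was 0 of 59 rows, was also 0 at a q-value under 0.10 and with rows of a mean FPKM of at least 1 adjusted again. At an unadjusted p under 0.05, chosen after seeing the data, it was 1. The count past 1.5-fold was 0 with no filter, at a mean of at least 5 FPKM, with the highest row alone, without FAIL rows, after scaling by the median ratio of 1.03, with a pseudocount of 0.1 or 0.5, at a step of 25% and at 2-fold, and with members taken by RefSeq symbol (added after seeing the data). The median difference stayed within 0.1 of its main value of 0.027 on the log2 scale, but its sign did not hold. This median ran from -0.0085 after scaling by the median ratio to 0.032 at a mean of at least 5 FPKM. The share of higher members was 56.4% in the main setting and moved with the setting. It ran from 45.5% after scaling by the median ratio to 60% at a mean of at least 5 FPKM. Txnrd1 differed by 0.16 over its rows and by 0.08 in its highest row. No paired analysis was possible because the table holds 1 pooled value for a group, and for this reason no library could be left out. Depth is unknown.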

Other observations

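Rows of 3 genes that RefSeq names with the same prefixes stand under other names in the table and were not counted above; they were chosen after their values were seen. Txnrd3, the thioredoxin and glutathione reductase known from the testis, has no name in its rows. Its row NM_153162 (mm10 chromosome 6, 89643988 to 89675529) was at 26.2 and 25.2 FPKM (the authors' deposited table gives p = 0.830), and the row NM_001178060 was listed at 0 in both columns. In these data Txnrd3 was thus above Txnrd1, at 23.4 and 20.9 FPKM, and above Txnrd2, at 9.10 and 9.38 FPKM, in both columns. Gstp3, under the name Bc021614, was at 0.671 and 0.306 FPKM. Txnl4a, counted above by 1 row at 5.87 and 5.72 FPKM, has 3 more rows under the name Gm16286, of which NM_001038608 was at 43.6 and 34.3 FPKM (the authors' deposited table gives p = 0.202), so most of its transcript stands outside the row counted. The range of differences given above, with its ends at Gstk1 and Txndc16, therefore holds for the rows counted alone and leaves out these rows.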
